A study of Mus musculus with 11 samples.

Results

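A set of 10 genes for amino acid transporters that the transcription factor ATF4 is known to control was compared in the mouse cochlea with and without ATF6: *Slc3a2*, *Slc7a1*, *Slc7a3*, *Slc7a5*, *Slc7a11*, *Slc1a4*, *Slc1a5*, *Slc6a9*, *Slc38a2* and *Slc43a1*. They were chosen by gene symbol, with earlier results of these data known, and all 10 were found among the 18667 genes of the expression tables. RNA was measured by RNA-Seq in whole cochleae of 2-month-old mice, with 1 library per cochlea, 5 from *Atf6*+/+ mice (labelled WT) and 6 from *Atf6*-/- mice (labelled ATF6 Knockout). In the *Atf6*-/- mice, exon 4 of *Atf6* holds an early stop codon in every cell of the body, and *Atf6*+/+ littermates were the controls. All mice were on the C57BL/6J background, which carries the *Cdh23*ahl allele of age-related hearing loss, so both groups share that allele. The sex of each library's mouse is not given in the labels.

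Cells take up amino acids through membrane carriers of the solute carrier (SLC) families, many of which are exchangers that let in 1 amino acid in return for another. When amino acids run short or unfolded protein builds up in the endoplasmic reticulum, a stress kinase phosphorylates the initiation factor eIF2α and ATF4 is translated. ATF4 then raises transcription of genes for amino acid synthesis and for carriers such as those described here. ATF6 is another sensor of the endoplasmic reticulum and mainly controls chaperones and degradation factors. In the inner ear, amino acid carriers supply hair cells, neurons, glia and the stria vascularis, and carriers of glutamate and glycine also clear transmitters.

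ATF4 binds DNA together with C/EBP proteins at a composite element of the form TGATGNAA, where N is any base. The sequences below are shown because they carry that element near the annotated start of 2 of the 10 transporter genes and of 4 other ATF4 target genes described further on. They come from RefSeq windows on build GRCm38.p6 that reach from 250 bases before to 50 bases after a gene start, are written 5′ to 3′ on the gene's own strand, and have each match in capitals. A match on the opposite strand appears as the reverse complement.
Slc7a11: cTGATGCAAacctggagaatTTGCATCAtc
Slc1a4: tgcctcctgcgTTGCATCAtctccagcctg
Asns: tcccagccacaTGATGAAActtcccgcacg
Chac1: cttccctgccgTTGCATCActcctgccagg
Fgf21: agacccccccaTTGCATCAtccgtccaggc
Trib3: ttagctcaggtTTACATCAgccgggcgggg

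The *Slc7a11* stretch (chr3:50443651-50443680, minus strand) holds 2 matches, from -66 to -59 and, inverted, from -47 to -40 relative to the gene start. In *Slc1a4* (chr11:20332699-20332728, minus strand) the element lies across the start itself. The other 4 stretches lie at chr6:7693214-7693243 on the minus strand for *Asns*, chr2:119351038-119351067 on the plus strand for *Chac1*, chr7:45615611-45615640 on the minus strand for *Fgf21* and chr2:152344028-152344057 on the minus strand for *Trib3*. Windows were matched for 7 of the 10 transporter genes, and not for *Slc7a3*, *Slc7a5* and *Slc1a5*. TGATGNAA was searched on both strands. It occurred in 2 of those 7 genes, which had 10 windows, and in 8 of 23 other ATF4 genes with a window, which had 27. A gene was counted when any of its windows held the element, while the share over all is per window. Of all 32851 windows of the same length, 3.97% held it. The stricter TGATGCAA, which is contained in it, was held by the same 2 transporter genes and by 0.895% of all windows. The endoplasmic reticulum stress response element, which ATF6 recognizes with NF-Y, matched in 0 of the 7 genes and in 0.119% of all windows. These are letter matches in these windows and were not measured as binding sites.

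Expression is given as FPKM, the number of sequenced fragments corrected for transcript length and for the depth of the library, so that levels can be set side by side between genes. Most of the transporter RNA came from 3 genes in every library. *Slc38a2*, *Slc3a2* and *Slc7a5* together took 79.5% to 83.2% of the summed FPKM of the 10 genes, and that sum lay between 346 and 449 FPKM. In *Atf6*+/+ cochleae the mean levels were 144 FPKM for *Slc38a2*, 123 for *Slc3a2*, 41.5 for *Slc7a5*, 25.1 for *Slc6a9*, 13.2 for *Slc7a1*, 10.7 for *Slc1a5*, 9.55 for *Slc1a4*, 7.28 for *Slc7a11*, 5.50 for *Slc43a1* and 0.654 for *Slc7a3*. Neighbours in that order had ranges that stood apart from *Slc3a2* to *Slc7a5*, to *Slc6a9* and to *Slc7a1*, and from *Slc43a1* to *Slc7a3*, while the ranges of the other neighbours overlapped. In *Atf6*-/- cochleae the order was the same apart from *Slc1a4*, which at 10.99 FPKM stood above *Slc1a5* at 9.89 FPKM with overlapping ranges, and there *Slc7a1* stood apart from *Slc1a4* and *Slc1a5* from *Slc7a11* as well. *Slc7a3* was the most variable gene of the set in *Atf6*+/+ cochleae, with a coefficient of variation of 28.8%, and *Slc7a5* the least, at 6.58%.

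**Figure D1:**
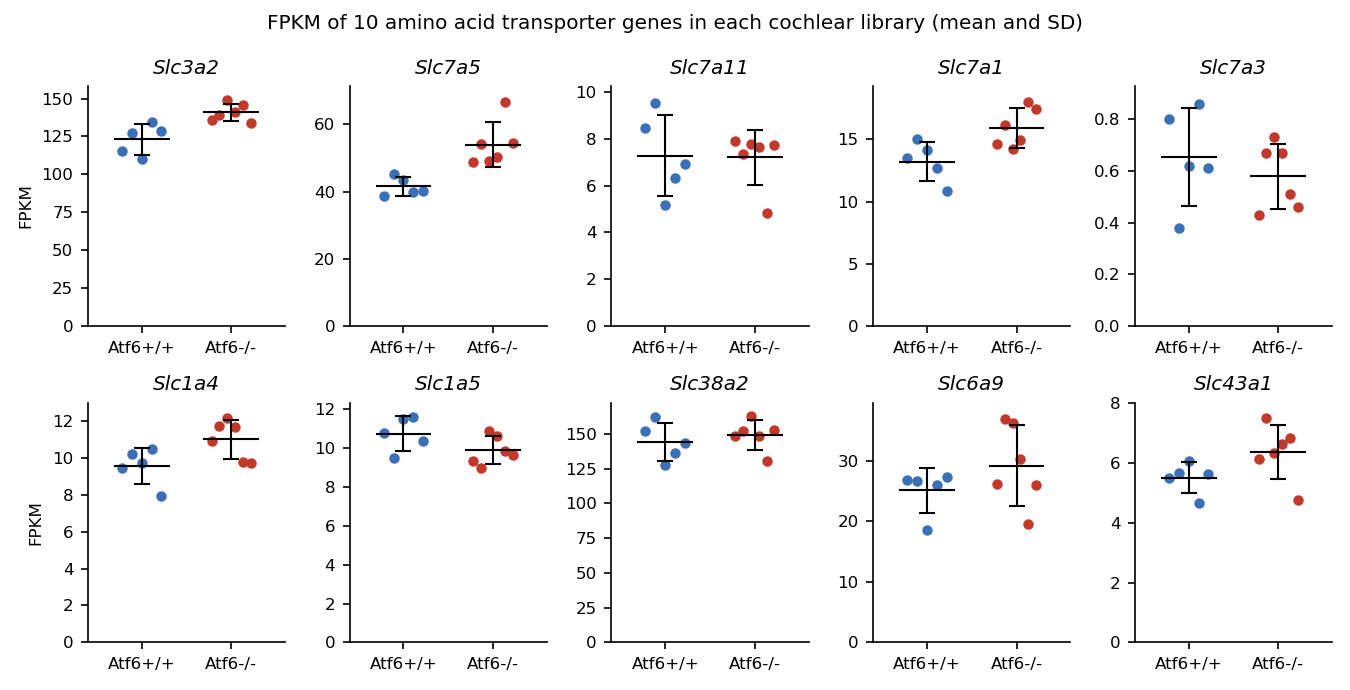
Each panel plots FPKM of 1 transporter gene on a linear axis from 0, with a point for each of the 5 Atf6+/+ and 6 Atf6-/- libraries in replicate order, a bar at the mean and whiskers of 1 SD. The 6 Atf6-/- points of Slc7a5 all lie above the highest Atf6+/+ point, and in every other panel the genotypes overlap.

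The genotypes were compared with limma on log2(FPKM + 0.1) over the 16169 genes whose mean reached 0.1 FPKM, and the 10 transporter genes were all among them. *Slc7a5*, *Slc3a2*, *Slc7a1* and *Slc1a4* were higher in *Atf6*-/- cochleae by a rule after the study's own, an unadjusted p (here limma's) no greater than 0.05 and a log2 fold change beyond 0.05 in size, and 0 of the 10 genes were lower by it. The study states a fold change above 0.05, which was read here as the absolute log2 fold change. By the same rule 9.85% of all genes were called, 4.48% as higher (724 genes) and 5.37% as lower (868 genes), and after rescaling to TPM, in which all libraries have the same sum, 1389 genes were higher and 439 lower. None of the 10 genes reached a Benjamini-Hochberg adjusted limma p under 0.05, which 0.0680% of all genes did, 0.0557% as higher. The fold change was above 0 for 8 of the 10, as for 7324 of all 16169 genes, and their median was 0.20 on the log2 scale against -0.013 over all genes tested. After rescaling to TPM it was above 0 for 8 of the 10 and for 10130 of all genes, and the medians were 0.26 and 0.043, so the median over all genes changed sign with the scaling. The eighth gene above 0 was *Slc7a11*, at 0.00014, and 7 of 10 were above 0 with a pseudocount of 1, with the replicate block and when any of 8 of the 11 libraries was left out, the others being *Atf6*+/+ replicates 1 and 2 and *Atf6*-/- replicate 5. Without *Atf6*+/+ replicate 3 the median was 0.13 with 7 of 10 above 0, without replicates 3 and 4 it was 0.13 with 6 above 0, and with the bone marrow score described below as covariate it was 0.11 with 7 above 0. Fewer cells of a type and less RNA per cell cannot be told apart in these whole-organ samples.

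*Slc3a2* encodes 4F2hc (CD98), the heavy chain that brings a family of light chains to the cell surface. The 5 *Atf6*+/+ libraries measured 115.05, 127.56, 109.99, 134.35 and 128.69 FPKM in replicate order. The 6 *Atf6*-/- libraries ran from 133.69 through a median of 140 to 148.78 FPKM. Only the lowest *Atf6*-/- library lay within the *Atf6*+/+ range, and the other 5 were above it. The mean went from 123 ± 10.2 FPKM (SD, n = 5) to 141 ± 5.66 FPKM (n = 6). The log2 fold change was 0.20 with a standard error of 0.057 (limma p = 0.00454, adjusted p = 0.368), and an exact two-sided permutation test gave p = 0.00433. Once the bone marrow score was a covariate it was 0.15, with an unadjusted limma p of 0.0674, above the study's threshold.

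*Slc7a5* encodes LAT1, the light chain that with 4F2hc exchanges glutamine for leucine and other large neutral amino acids. It measured 38.77, 45.37, 43.35, 40.01 and 40.16 FPKM in the *Atf6*+/+ libraries. The *Atf6*-/- libraries ran from 48.87 through a median of 52.4 to 66.65 FPKM. The groups did not overlap, which held for 1.25% of all genes, 0.643% with *Atf6*-/- higher and 0.606% with it lower, and *Slc7a5* was the only transporter of the 10 for which it did. The highest value belonged to *Atf6*-/- replicate 5, and the other 5 lay between 48.87 and 54.48 FPKM. *Slc7a5* was 1.29-fold higher without ATF6, and its log2 fold change was 0.37 with a standard error of 0.078 (limma adjusted p = 0.152). The unadjusted limma p was 0.000432, and the exact permutation test gave p = 0.00216, the smallest value that 462 permutations allow. By limma p *Slc7a5* ranked 46 among the 16169 genes.

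*Slc7a11* encodes xCT, the light chain that with 4F2hc imports cystine in exchange for glutamate and so feeds glutathione synthesis. It is also the transporter whose window carried the element 2 times. The *Atf6*+/+ libraries measured 8.46, 9.53, 5.17, 6.30 and 6.94 FPKM, and the *Atf6*-/- libraries ran from 4.84 through a median of 7.70 to 7.90 FPKM. All *Atf6*-/- libraries lay below the highest *Atf6*+/+ library, and 5 of the 6 were close together between 7.36 and 7.90 FPKM. The log2 fold change was 0.00014 with a 95% limma interval of -0.36 to 0.36 (limma adjusted p = 0.9998), and a difference within that interval was not detectable. Its sign was negative when *Atf6*+/+ replicates 3 and 4 were left out, at -0.21 on the log2 scale with an unadjusted limma p of 0.219. With the bone marrow score as covariate it was -0.25, with an unadjusted limma p of 0.221. When 1 library was left out it ranged from -0.11 to 0.11 and was negative for 8 of the 11.

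*Slc7a1* and *Slc7a3* encode CAT-1 and CAT-3, which carry the cationic amino acids arginine, lysine and ornithine. *Slc7a1* measured 13.49, 15.00, 14.12, 12.68 and 10.82 FPKM in *Atf6*+/+ cochleae and from 14.21 through a median of 15.6 to 18.02 FPKM in *Atf6*-/- cochleae. All 6 *Atf6*-/- libraries were above the *Atf6*+/+ mean and 3 were above its highest value. The log2 fold change was 0.27 with a standard error of 0.090 (limma p = 0.0109, adjusted p = 0.408, exact permutation p = 0.0173). With the replicate numbers as a block, a fit without *Atf6*-/- replicate 6, the log2 fold change of *Slc7a1* was 0.24 and the unadjusted limma p 0.0595, and without that library and with no block the p was 0.0257. *Slc7a3* was near the low end of what was tested, at 0.38 to 0.86 FPKM in *Atf6*+/+ and 0.43 to 0.73 FPKM in *Atf6*-/- libraries. Its log2 fold change was -0.13 with a 95% limma interval of -0.58 to 0.31 (adjusted p = 0.846). For *Slc7a3* this was -0.29 without *Atf6*+/+ replicate 2 and nearer 0 without *Atf6*+/+ replicate 1 (-0.060) or 4 (-0.037) or *Atf6*-/- replicate 1 (-0.067) or 6 (-0.083), and it was 0.064 with the bone marrow score as covariate.

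*Slc1a4* and *Slc1a5* encode ASCT1 and ASCT2, related exchangers of small neutral amino acids, of which ASCT1 is known for serine and ASCT2 for glutamine. *Slc1a4* measured 9.46, 10.18, 9.70, 10.45 and 7.94 FPKM in *Atf6*+/+ cochleae and from 9.73 through a median of 11.3 to 12.16 FPKM in *Atf6*-/- cochleae. Its *Atf6*-/- replicates 1 to 4 were above every *Atf6*+/+ library, and replicates 5 and 6 lay inside the *Atf6*+/+ range. The log2 fold change was 0.20 with a standard error of 0.085 (limma p = 0.0337, adjusted p = 0.480, exact permutation p = 0.0455). That unadjusted limma p was 0.0764 once the bone marrow score was a covariate. It was also above 0.05 when any of 6 libraries was left out, *Atf6*+/+ replicate 1 or 5 or *Atf6*-/- replicate 1, 2, 3 or 4, and reached at most 0.0953. In these 6 fits the log2 fold change was 0.14 to 0.20.

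*Slc1a5* measured 10.79, 9.47, 11.48, 11.61 and 10.34 FPKM in *Atf6*+/+ and from 8.98 through a median of 9.75 to 10.89 FPKM in *Atf6*-/- libraries. Among the *Atf6*-/- libraries 1 of 6 was above the *Atf6*+/+ mean. The groups overlapped, with a log2 fold change of -0.12 and a 95% limma interval of -0.27 to 0.034 (exact permutation p = 0.117, limma adjusted p = 0.571). Without *Atf6*+/+ replicate 2, its lowest control, the log2 fold change was -0.16 and the unadjusted limma p 0.0371, and with the bone marrow score as covariate they were -0.023 and 0.797. For *Slc1a5* the log2 fold change was -0.062 after rescaling to TPM and -0.046 when *Atf6*+/+ replicates 3 and 4 were left out.

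*Slc38a2* encodes SNAT2, which takes up glutamine, alanine and other small neutral amino acids with sodium. It spanned 127.45 to 161.98 FPKM in *Atf6*+/+ and 130.53 to 162.64 FPKM in *Atf6*-/- libraries, so the ranges nearly coincided. Its log2 fold change was 0.051 with a 95% limma interval of -0.100 to 0.20 (adjusted p = 0.822). For *Slc38a2* it was 0.0075, 0.031 and 0.025 without *Atf6*+/+ replicate 3, *Atf6*+/+ replicate 4 and *Atf6*-/- replicate 3, and 0.094 and 0.089 without *Atf6*+/+ replicate 2 and *Atf6*-/- replicate 5. It was -0.045 once the bone marrow score was a covariate. *Slc43a1* encodes LAT3, a carrier of large neutral amino acids that works without 4F2hc. It spanned 4.66 to 6.06 FPKM in *Atf6*+/+ and 4.76 to 7.49 FPKM in *Atf6*-/- libraries. Of the *Atf6*-/- libraries 5 were above all controls and replicate 6 was among the lowest, and the log2 fold change was 0.20 (exact permutation p = 0.119, limma adjusted p = 0.548). After rescaling to TPM its unadjusted limma p was 0.0463, and without *Atf6*-/- replicate 6 it was 0.00687 with a log2 fold change of 0.28.

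*Slc6a9* encodes GlyT1, which removes glycine from the space around neurons and glia. The *Atf6*+/+ libraries measured 26.89, 26.65, 18.50, 26.00 and 27.35 FPKM, so replicate 3 stood apart. The *Atf6*-/- libraries ran from 19.54 in replicate 5 through a median of 28.3 to 36.80 FPKM in replicate 2. The log2 fold change was 0.20 with a 95% limma interval of -0.15 to 0.55 (exact permutation p = 0.318, limma adjusted p = 0.671). Without *Atf6*-/- replicate 5 it was 0.31 and the unadjusted limma p 0.0372. Without *Atf6*+/+ replicate 3 it was 0.094, without *Atf6*-/- replicate 2 or 3 it was 0.13, and it was 0.074 after adding the bone marrow score as covariate, with unadjusted limma p of 0.423 or above.

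**Figure D2:**
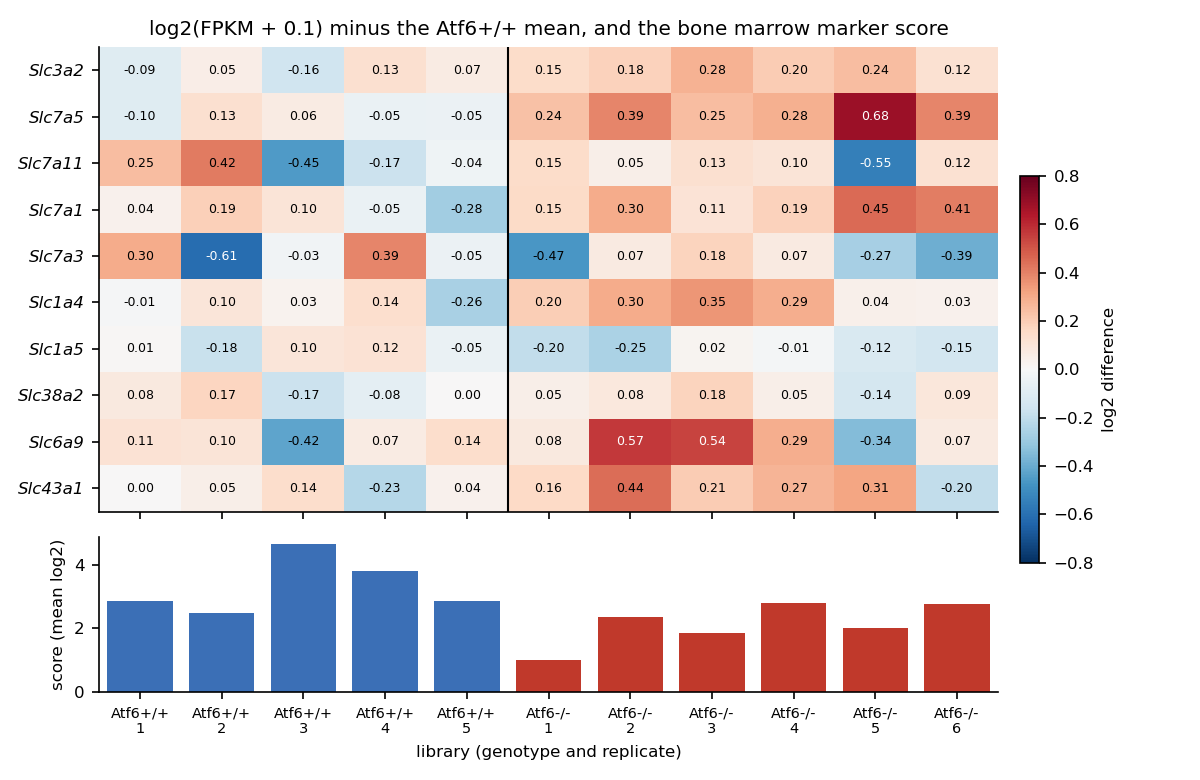
The upper panel gives, for each of the 10 genes and 11 libraries, log2(FPKM + 0.1) minus the mean of the 5 Atf6+/+ libraries, with the genotypes parted by a line. The lower panel gives the bone marrow marker score, a mean log2 level, which was highest in Atf6+/+ replicate 3 at 4.65 and lowest in Atf6-/- replicate 1 at 0.99.

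Libraries did not deviate in the same direction across the set. *Atf6*-/- replicate 5 had the highest *Slc7a5* and *Slc7a1* of its group and the lowest *Slc7a11*, *Slc6a9* and *Slc38a2*. *Atf6*-/- replicate 3 was the highest of its group for 5 of the 10 genes, *Slc3a2*, *Slc1a4* and *Slc38a2* among them. *Atf6*+/+ replicate 3 was the lowest of its group for 4 genes, *Slc3a2*, *Slc7a11*, *Slc6a9* and *Slc38a2*.

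The mutated gene served as a partial check of the labels, since a stop codon need not remove the mRNA. *Atf6* was 9.52 ± 1.11 FPKM (SD, n = 5) in *Atf6*+/+ and 4.27 ± 0.285 FPKM (n = 6) in *Atf6*-/- cochleae, and the groups did not overlap (log2 fold change -1.13, limma adjusted p = 5.2e-05). Sums of FPKM per library were 462005 to 537926, log2 values of any pair of libraries correlated at 0.963 to 0.990, and hair cell, stria vascularis, neuron and glia markers were detected in both groups. Markers of bone marrow cells were lower in *Atf6*-/- libraries. All 10 neutrophil genes, all 7 tested B lineage genes and all 11 erythroid genes had a log2 fold change below 0, with 6, 4 and 8 of them at the unadjusted rule and 0 of these genes at 0 in any library. By that rule 5.37% of all genes were lower and 4.48% higher. Summed neutrophil FPKM was 259 to 3222 in the controls and 93.9 to 1209 without ATF6. Summed erythroid FPKM was 3385 to 32103 in the controls and 1970 to 6491 without ATF6. The B lineage genes summed to 9.14 to 34.1 and 7.21 to 13.6 FPKM. Of the markers of other cells, 6 of 6 stria vascularis, 5 of 6 otic fibrocyte and tectorial and 4 of 4 glia genes had a log2 fold change above 0, with 1 of each list at the unadjusted rule. It was below 0 for 6 of 6 neuron and 6 of 6 bone genes, with 1 and 0 at that rule, and for 7 of 8 macrophage, 7 of 8 endothelial and 5 of 6 melanocyte genes, with 0 at it. Melanocyte genes summed to 6.06 FPKM in *Atf6*+/+ replicate 4, beside 80.57 to 110.54 FPKM in the other controls and 18.17 to 111 FPKM in *Atf6*-/- libraries. Skeletal muscle genes summed to 35.4 FPKM in *Atf6*-/- replicate 3 and to at most 5.29 FPKM in the other 10 libraries. The part of these other cells in the transporter differences was not tested. Hair cell markers were higher for 9 of 10 genes, 2 of them at the unadjusted rule, with scores of 1.83 to 3.39 in *Atf6*+/+ and 2.37 to 3.08 in *Atf6*-/- libraries.

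Since the neutrophil, B lineage and erythroid genes were lower in *Atf6*-/- libraries, the transporter differences were also fitted with the bone marrow score, for which the mean log2 levels of the neutrophil, B lineage and erythroid lists were averaged with equal weight, as a covariate. The log2 fold change of *Slc7a5* was then 0.40 and that of *Slc7a1* 0.33, with unadjusted limma p of 0.00285 and 0.0191. *Slc3a2* and *Slc1a4* lost their call, the latter at a log2 fold change of 0.22 beside 0.20 without the score. Thus 2 transporters in place of 4 were higher at the unadjusted rule, while over all genes 344 in place of 724 were higher. The score was 2.47 to 4.65 in *Atf6*+/+ and 0.99 to 2.79 in *Atf6*-/- libraries, so it was partly confounded with genotype. This fit cannot fully separate score and genotype, and a lost call alone does not show that a difference was gone. *Atf6*+/+ replicates 3 and 4 had the lowest hair cell scores, 1.89 and 1.83, and replicate 4 also had the lowest stria vascularis score of 2.12. Without these 2 libraries *Slc7a5*, *Slc3a2*, *Slc7a1* and *Slc1a4* had log2 fold changes of 0.38, 0.19, 0.29 and 0.26, with limma p from 0.00287 to 0.0262.

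Light chains share 4F2hc, and ratios within a library do not depend on how libraries were scaled to each other. In *Atf6*+/+ cochleae there were 0.339 ± 0.0379 FPKM of *Slc7a5* per FPKM of *Slc3a2*, and in *Atf6*-/- cochleae 0.384 ± 0.0453. This ratio differed by 0.18 on the log2 scale (exact permutation p = 0.115, adjusted p = 0.229 over 4 ratios). The ratio of *Slc7a11* to *Slc3a2* was 0.0592 ± 0.0139 and 0.0514 ± 0.00923 (exact permutation p = 0.314, adjusted p = 0.314). The 6 light chains together, *Slc7a5*, *Slc7a6*, *Slc7a7*, *Slc7a8*, *Slc7a10* and *Slc7a11*, came to 0.829 ± 0.0872 and 0.898 ± 0.0934 FPKM per FPKM of *Slc3a2* (exact permutation p = 0.234, adjusted p = 0.312). None of these 3 differences was larger than the spread between libraries by the exact test. Without *Atf6*-/- replicate 5 the *Slc7a11* ratio differed by -0.076 in place of -0.20, and over all libraries left out in turn by -0.27 to -0.076. It came to -0.11 without *Atf6*+/+ replicate 1 and -0.10 without *Atf6*+/+ replicate 2. The *Slc7a5* ratio differed by 0.12 to 0.23, the latter without *Atf6*+/+ replicate 3 (exact permutation p = 0.0429, adjusted p = 0.0857). The summed ratio differed by 0.067 without *Atf6*+/+ replicate 4 and 0.069 without *Atf6*-/- replicate 5, and by up to 0.15.

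Glutamine that enters through ASCT2 can leave through LAT1 in exchange for leucine, and the ratio of *Slc1a5* to *Slc7a5* was lower in *Atf6*-/- cochleae. It was 0.260 ± 0.0312 (SD, n = 5) in *Atf6*+/+, with a range of 0.209 to 0.290. In *Atf6*-/- it was 0.185 ± 0.0277 (n = 6), with a range of 0.148 to 0.221. Only the lowest *Atf6*+/+ library, replicate 2, lay within the *Atf6*-/- range. The difference was -0.49 on the log2 scale (exact permutation p = 0.0108, adjusted p = 0.0433 over 4 ratios). With 1 library left out the unadjusted exact p stayed between 0.00952 and 0.0238. The adjusted p was then 0.0381 without *Atf6*+/+ replicate 2 and above 0.05, up to 0.0952, without any of the other 10 libraries. By itself *Slc1a5* had a log2 fold change of -0.12 (exact permutation p = 0.117) and *Slc7a5* 0.37 (exact permutation p = 0.00216). The larger part of the ratio's difference is thus that of *Slc7a5* given above.

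**Figure D3:**
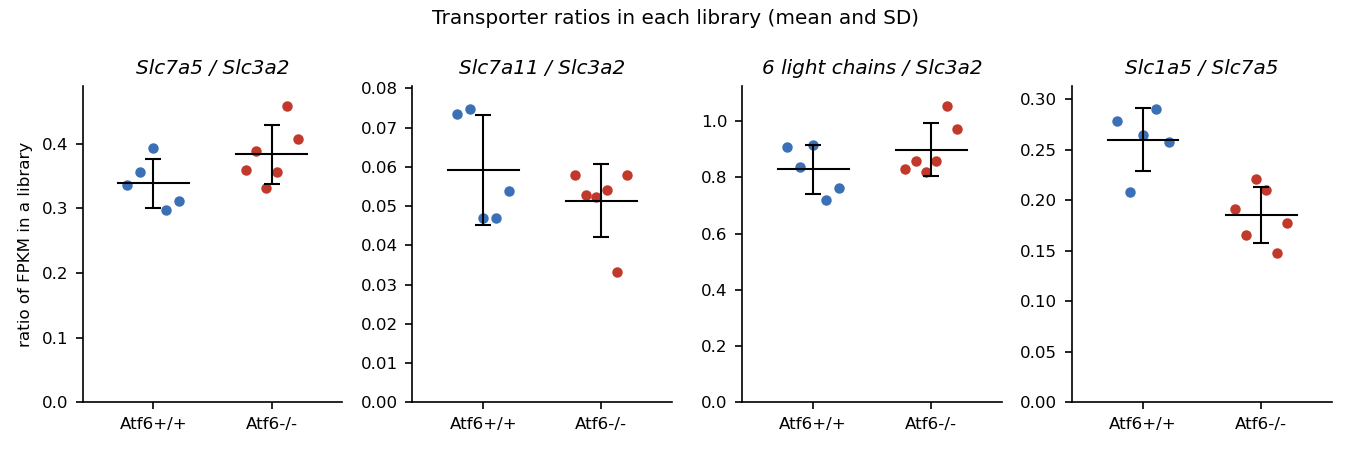
Each panel plots the ratio of FPKM of transporter genes within a library on a linear axis from 0, with points for 5 Atf6+/+ and 6 Atf6-/- libraries, bars at the mean and whiskers of 1 SD. The genotypes part most in the ratio of Slc1a5 to Slc7a5, with means of 0.260 and 0.185, and overlap widely in the other 3 ratios.

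*Slc7a8*, which encodes LAT2, was as abundant as *Slc7a5*. Each made up 41.0% of the summed light chain FPKM in *Atf6*+/+ cochleae, and in *Atf6*-/- cochleae *Slc7a5* was 42.7% ± 1.76 and *Slc7a8* 41.8% ± 3.96. *Slc7a8* itself measured 46.32, 42.82, 41.25, 38.36 and 39.27 FPKM in *Atf6*+/+ and from 41.62 through a median of 51.5 to 71.37 FPKM in *Atf6*-/- libraries, with a log2 fold change of 0.33 (exact permutation p = 0.0281, limma adjusted p = 0.415). As for *Slc7a5*, the highest value was in *Atf6*-/- replicate 5. *Slc7a10*, the light chain of the small neutral amino acid carrier Asc-1, was 1.74 ± 0.485 FPKM and 3.41 ± 2.11 FPKM (exact permutation p = 0.104), and 1 of the *Atf6*-/- libraries was at 7.13 FPKM. *Slc7a6* and *Slc7a7*, the y+LAT light chains that release cationic amino acids, had log2 fold changes of -0.031 and -0.16 (exact permutation p = 0.608 and p = 0.400).

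The level of *Slc3a2* was also compared with that of its partners between cochleae of the same genotype, where 0 of 6 relations passed the adjusted threshold. After centring on the genotype means, Pearson's r over 11 libraries was 0.047 with *Slc7a5*, -0.036 with *Slc7a8*, 0.059 with *Slc7a11* and 0.055 with *Slc7a10* (Spearman's rho -0.073, -0.18, -0.11 and 0.20, permutation p from 0.555 to 0.918, adjusted p from 0.838 to 0.918 over 6 relations). It was -0.65 with *Slc7a6* (rho -0.70) and 0.65 with *Slc7a7* (rho 0.66), with permutation p for r of 0.0287 and 0.0308, for rho of 0.0207 and 0.030, and adjusted p of 0.0924 for both r and 0.0904 for both rho. Without the 2 libraries farthest from the median of *Slc3a2*, *Atf6*+/+ replicates 3 and 4, r was -0.63 and 0.66 with *Slc7a6* and *Slc7a7* and 0.30, 0.057, -0.27 and 0.010 with *Slc7a5*, *Slc7a8*, *Slc7a11* and *Slc7a10*. The relations depended on the scaling. After median-of-ratios scaling r was 0.22 with *Slc7a5*, -0.44 with *Slc7a6* and 0.65 with *Slc7a7* (permutation p = 0.530, 0.177 and 0.0314), and after rescaling to TPM it was 0.42, -0.33 and 0.29 (permutation p = 0.195, 0.318 and 0.393). Among the 13610 genes whose mean reached 1 FPKM, those most like *Slc3a2* by the same measure were *Esd* (r = 0.942), *Echs1* (0.919), *Eif4a3* (0.914), *Dnpep* (0.900) and *Tprgl* (0.894). This order was not tested and was made under 1 scaling only. Its top genes are the highest of 13610 values over 11 libraries, so their r is raised by the choice. Among the light chains and those of the 10 transporters that were ranked, which leaves out *Slc7a3* for its low level, *Slc7a7* stood first in that order at rank 578, and *Slc6a9* followed at rank 2740 with r = 0.37.

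A further 44 amino acid carriers were listed, from the families of the 10 genes and from the SLC16 and SLC36 families, and 34 of these were expressed highly enough to be tested. At the unadjusted rule 4 of the 34 were higher in *Atf6*-/- cochleae and 2 were lower, beside 4.48% and 5.37% of all genes. An adjusted limma p under 0.05 was reached by 0, and 0 had groups that did not overlap. Of all genes only 0.0680% and 1.25% did so, and 0 of 34 is near these shares. The fold change was above 0 for 20 and below 0 for 14, with a median of 0.022 on the log2 scale beside 0.20 for the 10 ATF4-controlled carriers. After rescaling to TPM 27 were above and 7 below 0, and the medians were 0.078 and 0.26 beside 0.043 over all genes. These medians were 0.076 and 0.11 with the bone marrow score as covariate, and 0.061 and 0.13 without *Atf6*+/+ replicates 3 and 4. Leaving out 1 library moved the median of the other carriers between -0.0035, without *Atf6*+/+ replicate 5, and 0.054, without *Atf6*+/+ replicate 3. The 4 that were higher were *Slc7a8*, *Slc7a10*, *Slc7a2* and *Slc38a3*, with log2 fold changes of 0.33, 0.77, 0.28 and 0.33, of which *Slc7a2* and *Slc38a3* were named after their values were seen. For *Slc7a10* the unadjusted limma p was 0.0478 and the exact permutation p 0.104. With the bone marrow score as covariate, or without *Atf6*+/+ replicates 3 and 4, 0 were higher at the unadjusted rule. In these fits the fold change was above 0 for 22 and 23 of the 34 and below 0 for 12 and 11. The 3 with the smallest p were *Slc38a5*, *Slc6a15* and *Slc7a8*.

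*Slc38a5* encodes SNAT5, a carrier of glutamine and histidine. It measured 5.11, 4.88, 5.46, 6.85 and 4.51 FPKM in *Atf6*+/+ and from 2.42 through a median of 3.39 to 4.61 FPKM in *Atf6*-/- libraries, with a log2 fold change of -0.60 (exact permutation p = 0.0152, limma adjusted p = 0.368). Its log2 fold change was -0.45 once the bone marrow score, also lower in *Atf6*-/- libraries, was a covariate, with an unadjusted limma p of 0.0675. *Slc6a15*, a carrier of branched-chain amino acids and proline in neurons, was 38.3 ± 3.10 FPKM and 32.4 ± 3.08 FPKM, with a log2 fold change of -0.24 (exact permutation p = 0.0216, limma adjusted p = 0.389). After rescaling to TPM it was -0.19 for *Slc6a15*, with an unadjusted limma p of 0.0750.

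The rest of the ATF4 programme was represented by *Atf4* and 24 genes for its partners and targets that are no transporters. All 25 were tested. Like the 10 transporters, they were chosen with earlier results of these data known, so their counts are no independent test. At the unadjusted rule 17 were higher in *Atf6*-/- cochleae and 0 lower, beside 4.48% and 5.37% of all genes. An adjusted limma p under 0.05 was reached by 4 and groups did not overlap for 9, beside 0.0680% and 1.25% of all genes. The 4 became 2 with a pseudocount of 0.01, where *Shmt2* (limma adjusted p = 0.0600) and *Adm2* (limma adjusted p = 0.0633) were lost. They became 2 with a minimum mean of 1 FPKM, which *Adm2* did not reach and where *Shmt2* had a limma adjusted p of 0.0514. That filter leaves the log2 fold change of *Shmt2* at 0.38. After median-of-ratios scaling *Shmt2* was lost as well, at 0.0523. With the bone marrow score as covariate 1 was left, *Atf5*. The median log2 fold change was 0.40, beside 0.20 for the 10 transporters and -0.013 over all genes. With the bone marrow score as covariate the ATF4 genes had a median of 0.27 and the transporters 0.11, and without *Atf6*+/+ replicate 3 the medians were 0.33 and 0.13. *Atf4* mRNA was 123 ± 14.9 FPKM and 140 ± 12.6 FPKM, with a log2 fold change of 0.19 (exact permutation p = 0.0693, limma adjusted p = 0.495).

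The 4 genes of this list that passed the adjusted threshold rose. *Fgf21*, a secreted stress hormone, went from 2.65 ± 2.09 to 18.1 ± 1.76 FPKM (log2 fold change 3.06, limma adjusted p = 0.00923). *Atf5*, a transcription factor of the same stress response, went from 37.4 ± 4.66 to 68.3 ± 5.06 FPKM (log2 fold change 0.87, limma adjusted p = 0.000441). *Shmt2*, the mitochondrial enzyme that makes glycine from serine, went from 18.5 ± 1.76 to 23.9 ± 0.826 FPKM (log2 fold change 0.38, limma adjusted p = 0.0482). That adjusted p stayed under 0.05 without *Atf6*+/+ replicate 4, at 0.00397, and was 0.0948 to 0.136 without any of the other 10 libraries. *Adm2*, which encodes the peptide hormone intermedin, was at 0 to 0.14 FPKM in *Atf6*+/+ and 0.32 to 0.74 FPKM in *Atf6*-/- libraries (log2 fold change 2.24, limma adjusted p = 0.00534). With controls this near 0 the size follows the pseudocount, and *Adm2* had 0.57 with a pseudocount of 1 and 4.11 with 0.01.

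Among the other ATF4 genes, *Asns*, the enzyme that makes asparagine, was 61.8 ± 7.62 FPKM and 85.4 ± 8.42 FPKM, with groups that did not overlap and differed by 0.47 on the log2 scale (limma adjusted p = 0.0909). *Chac1*, which degrades glutathione, differed by 0.88 on the log2 scale (limma adjusted p = 0.294), and *Trib3*, a pseudokinase that feeds back on ATF4, by 0.46 (limma adjusted p = 0.457). *Ddit3*, which encodes CHOP, had a log2 fold change of -0.22 (exact permutation p = 0.0909, limma adjusted p = 0.505). In size, the *Slc7a5* difference of 0.37 was near that of *Shmt2*, and the other 9 transporters lay below it. Of the 6 genes whose element is printed above, *Asns*, *Chac1*, *Trib3* and *Fgf21* had log2 fold changes of 0.47, 0.88, 0.46 and 3.06, *Slc1a4* 0.20 and *Slc7a11* 0.00014. The other 4 ATF4 genes with the element, named after their values were seen, had -0.26 (*Atf3*), 0.24 (*Nupr1*), 0.35 (*Vldlr*) and 0.50 (*Pycr1*).

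**Figure D4:**
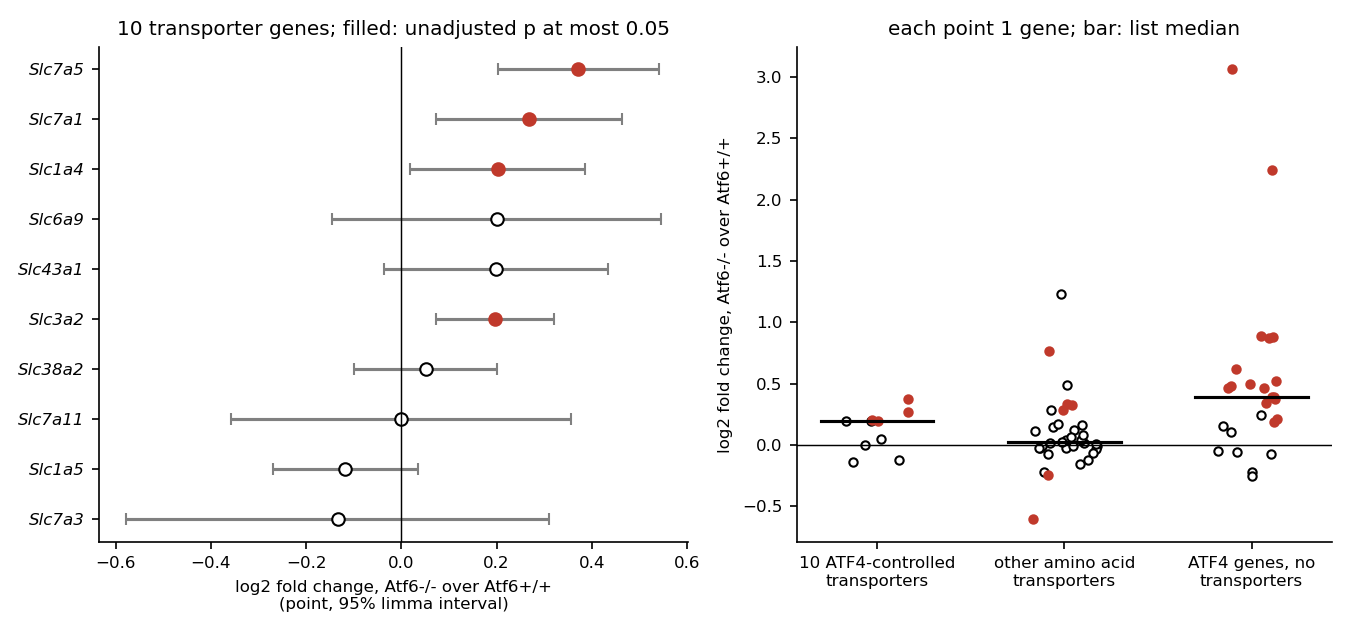
The left panel plots the log2 fold change, Atf6-/- over Atf6+/+, of each of the 10 transporter genes with its 95% limma interval, filled where the unadjusted p was at most 0.05. The right panel plots each tested gene of 3 lists, filled by the same rule, with a bar at the median, which was 0.20 for the 10 transporters, 0.022 for 34 other amino acid transporters and 0.40 for 25 ATF4 genes. The lists were chosen with earlier results of these data known.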

How the data were processed

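Gene-level FPKM values were used as deposited, with 2 decimals, for 5 *Atf6*+/+ and 6 *Atf6*-/- cochleae. The authors extracted RNA with an RNeasy kit, sequenced stranded mRNA libraries as paired ends on DNBSEQ, aligned the reads with HISAT2 2.0.4 to GRCm39, and computed FPKM with RSEM, given as version 1.2.12 in the submitters' processing notes and as another in the methods. Reads per library are not known from these values. In 6 to 16 low genes per library, the library's value was a median of 1 to 1.08 times the smallest value above 0 of the other libraries. Only ratios near 1 were kept for this, so the median could not lie far from 1 and does not show whether depth was equal. The columns were not scaled to a common sum.

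The values do not hold counts, so limma 3.58.1 in R 4.3.3 (lmFit and eBayes with trend, two-sided, genotype as the only term) was run on log2(FPKM + 0.1) for genes whose mean reached 0.1 FPKM. Fold changes are on that scale, which understates those of low genes. P-values were adjusted by the Benjamini-Hochberg method over 16169 genes. Exact permutation tests, two-sided, enumerated all 462 permutations, and correlations 100000 resamples. Python 3.11.15 was used for these. The linear model and the exact test were checked on simulated data. The members and lists were chosen with earlier results of these data known. Genes were named by a rule: the 10 transporters, *Atf6*, the other light chains, the 3 other transporters of smallest p, *Atf4*, *Ddit3*, *Asns*, *Chac1*, *Trib3*, ATF4 genes past the adjusted threshold, marker genes, and the 5 genes most like *Slc3a2*. Replicates are separate cochleae, and it is not stated whether any came from the same animal, so p-values measure the spread between these samples, part of which may be technical. Promoter windows were RefSeq sequences of GRCm38.p6, another build than that of the files, and were matched by symbol only. Alternatives were other pseudocounts, filters and scalings (TPM, median of ratios), robust variance, a replicate block, the bone marrow score as a covariate, and leaving out libraries. Leaving out *Atf6*+/+ replicates 3 and 4 together was added after seeing the data.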

Additional observations from a re-analysis of the deposited data

Results flagged for a closer look

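In 28 groups of 5 or 6 values, the highest or the lowest was compared with its neighbour by Dixon's ratio, which chance passes in about 1 of 20 groups, and 4 values stood apart. *Slc6a9* was 18.5 FPKM in *Atf6*+/+ replicate 3, beside 26.00 to 27.35 FPKM in the other 4. *Atf6*-/- replicate 5 gave the other 3: *Slc7a5* at 66.65 FPKM, above 48.87 to 54.48 FPKM in the other 5, *Slc7a11* at 4.84 FPKM, below 7.36 to 7.90 FPKM, and a ratio of *Slc7a11* to *Slc3a2* of 0.0333 against a group mean of 0.0514. Without *Atf6*-/- replicate 5 the log2 fold change of *Slc7a5* was 0.31, with an unadjusted limma p of 0.000151.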

How the results depend on the processing

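*Slc7a5*, *Slc3a2*, *Slc7a1* and *Slc1a4* stayed higher at the unadjusted rule under other pseudocounts, filters, scalings and robust variance, and 0 of the 10 transporters passed the adjusted threshold under any alternative. With the bone marrow score as covariate, 2 of the 10 were higher (in place of 4), 0 other transporters were higher and 1 lower, and over all genes 344 were higher and 540 lower, 5 and 1 of them at the adjusted threshold. *Slc7a3*, *Slc7a11* and *Slc38a2* then changed sign, with log2 fold changes of 0.064, -0.25 and -0.045. Without *Atf6*+/+ replicates 3 and 4, *Slc7a11* was at -0.21 and *Slc38a2* at -0.033, 0 other transporters were higher, and 434 genes were higher and 576 lower. Rescaled to TPM, 1389 genes were higher and 439 lower, 1 of the latter at the adjusted threshold, with 7 other transporters higher and 1 lower. Robust variance left 2 other transporters higher. *Slc7a11* was at -0.00087 with a pseudocount of 1. The ATF4 genes past the adjusted threshold were 2 with a pseudocount of 0.01, 2 with a mean of at least 1 FPKM, and 1 with the bone marrow score. The cause of these shifts was not tested.

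No sign of pairing by replicate number was seen. Deviations from the genotype means correlated at -0.21 to 0.12 between libraries of the same number, and 1 of 5 correlated best with its own number. With 5 such pairs a shared litter or batch could be missed. The replicate block could only be fitted without *Atf6*-/- replicate 6, whose number has no partner, so its values carry both changes. With the numbers as a replicate block, 422 genes were higher, 3 genes were higher and 1 lower at the adjusted threshold, 2 other transporters were higher and 1 ATF4 gene passed the adjusted threshold. *Slc7a11* was at -0.024, and the unadjusted limma p was 0.0595 for *Slc7a1* and 0.0164 for *Slc43a1*. Without replicate 6 and with no block, *Slc7a11* was also at -0.024 and the p was 0.0257 for *Slc7a1* and 0.00687 for *Slc43a1*.

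Correlations with *Slc3a2* changed sign with median-of-ratios scaling for *Slc7a8* (0.085), *Slc7a10* (-0.0077) and *Slc7a11* (-0.045), and with TPM for *Slc7a8* (0.28) and *Slc7a10* (-0.24). For *Slc7a5* r was 0.22 and 0.42 with these scalings in place of 0.047. For *Slc7a6* r was -0.44 and -0.33, and for *Slc7a7* 0.65 and 0.29.

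Leaving out 1 library at a time gave 3 to 5 transporters of the 10 higher and 0 to 1 lower, the 1 being *Slc1a5* without *Atf6*+/+ replicate 2. Other transporters higher numbered 1 to 6, with 1 without *Atf6*+/+ replicate 4 and 2 without *Atf6*-/- replicate 3. ATF4 genes lower numbered 0 to 1 and genes lower at the adjusted threshold 1 to 3. *Slc7a11* ranged from -0.11 to 0.11 and the *Slc1a5* to *Slc7a5* difference from -0.57 to -0.43. Levels near 0.1 FPKM, with 2 decimals, and 11 libraries limit the precision.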
